A study of Mus musculus with 4 samples.

Results

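The 10 genes described here encode thrombospondins, tenascins and other proteins that cells secrete into the matrix around them: Thbs1, Thbs2, Thbs3, Comp, Tnc, Tnn, Tnxb, Postn, Sparc and Fn1. They were taken by gene identifier from a table of 41029 genes, and all 10 were found. The samples were cultured mesenchymal stem/progenitor cells from the marrow of mice, plastic-adherent stroma with the capacity to make bone, fat or cartilage, and their RNA was sequenced. The cells came from C57BL/6 mice and were grown in MesenCult medium, replated near confluence, and trypsinised before RNA was taken. There were 2 libraries of genotype Tet2-/- and 2 of wild type. The product of Tet2 oxidises 5-methylcytosine as a step in removing DNA methylation, and the design asks how its loss alters gene expression in these cells. The labels give no age, passage, number of animals or number of cultures, and do not say which part of Tet2 was deleted, so replicates may be technical, and all p-values reflect no more than how far these libraries scatter.

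Matricellular proteins are secreted proteins that sit in the matrix but act mainly as signals: they bind integrins and other receptors on the cell, hold or release growth factors, and steer how collagen and fibronectin fibrils are laid down. Thrombospondin 1 binds the receptors CD36, CD47 and calreticulin with LRP1, and it can release transforming growth factor beta (TGF-beta) from its latent complex. Tenascins bind fibronectin and integrins, and periostin, SPARC and fibronectin are abundant around bone-forming and fibroblastic stromal cells. In marrow stroma these proteins are part of the surroundings in which blood stem cells are held.

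Levels are in FPKM, a measure of reads corrected for gene length and library size. The libraries held 15847340 and 21337246 reads over genes in knockout 1 and knockout 2, and 10096878 and 17778152 in wild type 1 and wild type 2. Expression of Tet2 was no lower under the knockout label, at 11.6 and 9.70 FPKM against 7.01 and 8.39 FPKM in wild type. Reads summed over the gene do not reveal a deleted exon, so the libraries go by their labels. The wild-type libraries were very alike: per gene with at least 50 reads, the mean chi-square of their difference was 2.52, where counting error alone gives 1, whereas it was 194 between the knockout-labelled libraries. Of all 12344 genes tested, 12.5% lay at least 2-fold apart between the knockout-labelled libraries and 0.413% between the wild-type libraries. Results are therefore given library by library.

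Promoter windows of the genes that exceeded each wild-type library by 2-fold or more in either knockout-labelled library are shown first, because TET2 acts on methylated cytosine in the dinucleotide CG. They are from RefSeq (GRCm38.p6) and run from 250 bases before to 50 bases after a transcription start. The table used holds windows for 7 of the 10 genes, and of the 5 genes chosen in this way it holds Thbs2, Tnn, Tnxb and Postn. Capitals mark every CG, and each line reads 5′ to 3′ on the strand of the gene. The windows lie at chr17:14694213-14694512 (minus strand) for Thbs2, chr1:160153526-160153825 (minus) for Tnn, chr17:34670285-34670584 (plus) for Tnxb and chr3:54360857-54361156 (plus) for Postn, the last being the one of its windows that starts at the annotated gene start to within 2 bases.
Thbs2: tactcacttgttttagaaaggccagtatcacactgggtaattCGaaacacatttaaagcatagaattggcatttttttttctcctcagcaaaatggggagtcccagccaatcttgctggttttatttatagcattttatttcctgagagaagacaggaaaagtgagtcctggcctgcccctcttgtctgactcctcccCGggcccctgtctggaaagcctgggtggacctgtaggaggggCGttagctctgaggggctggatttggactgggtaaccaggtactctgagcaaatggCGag
Tnn: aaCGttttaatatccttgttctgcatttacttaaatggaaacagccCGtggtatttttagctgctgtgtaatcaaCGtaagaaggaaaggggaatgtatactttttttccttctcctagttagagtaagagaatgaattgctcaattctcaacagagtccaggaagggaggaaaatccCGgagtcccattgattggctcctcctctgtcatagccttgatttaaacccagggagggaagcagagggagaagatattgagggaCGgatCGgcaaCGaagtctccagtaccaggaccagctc
Tnxb: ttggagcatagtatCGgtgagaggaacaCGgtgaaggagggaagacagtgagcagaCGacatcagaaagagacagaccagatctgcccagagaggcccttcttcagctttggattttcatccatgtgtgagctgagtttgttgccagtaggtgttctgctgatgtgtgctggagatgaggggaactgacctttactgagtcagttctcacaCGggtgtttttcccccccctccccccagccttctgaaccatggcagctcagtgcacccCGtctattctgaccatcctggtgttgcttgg
Postn: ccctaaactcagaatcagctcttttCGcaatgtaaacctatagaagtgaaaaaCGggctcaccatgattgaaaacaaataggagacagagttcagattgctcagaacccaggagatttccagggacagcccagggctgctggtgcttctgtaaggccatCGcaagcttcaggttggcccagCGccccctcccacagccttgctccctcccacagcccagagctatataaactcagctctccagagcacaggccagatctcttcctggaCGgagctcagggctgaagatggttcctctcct
These 4 windows hold 4, 7, 5 and 5 CG dinucleotides in the order shown, and the median of all 32851 windows in the table is 7. Between 38.0% and 51.4% of all windows hold as few. The Tnc window at the annotated gene start holds 10 CG and that of Thbs3 holds 8. The motif TATAAA was searched on both strands. It begins at position -26 from the start in the Postn window and occurs on the opposite strand in the Thbs2 window, while its letters are absent from the windows of Tnn and Tnxb. Of all windows, 13.6% hold it on either strand and 8.32% on the gene's strand. DNA methylation was not measured, so the windows are a description only.

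No member passed the test of the difference between groups. The test was limma on log2(FPKM + 1), with the spread pooled over genes and p-values adjusted by Benjamini-Hochberg over 12344 genes. Past an adjusted p of 0.05 were 0 of the 10 members in limma and 0 with voom on the reads behind the FPKM, while 0.0162% of all genes passed in limma. At an unadjusted p under 0.05 there were 2 of 10 in limma, Thbs2 on the higher side (8.84% of all genes) and Comp on the lower (8.29%), beside 17.1% of all genes in either direction. Both knockout-labelled libraries lay above both wild-type libraries for 4 members (Thbs1, Thbs2, Thbs3 and Postn) and below both for 2 (Comp and Fn1), so that 6 of 10 lay outside on 1 side, near the background of 54.2%. The median log2 difference of the 10 was 0.86, beside 0.03 over all genes tested. By library that median was 0.10 in knockout 1 and 0.96 in knockout 2, beside 0.03 and 0.03 over all genes. Genes were tested only if their mean over the 4 libraries was at least 1 FPKM. Tnxb met this through knockout 1 alone, Tnn mainly through knockout 2 and Comp through wild type alone. The counts and medians of the 10 are therefore not independent of that filter, and a shift of the 10 as a set was not tested. Log2 differences subtract wild type from knockout-labelled, with 1 added to each FPKM.

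**Figure D1:**
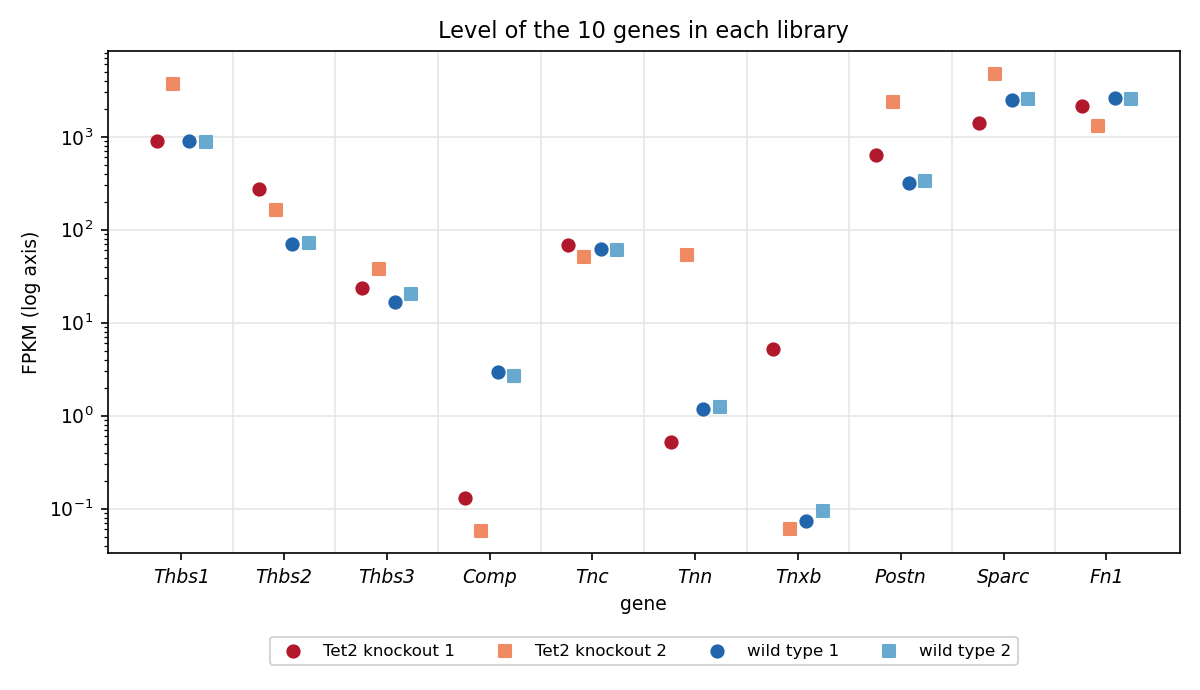
FPKM of each of the 10 genes (log axis) in the 2 Tet2 knockout-labelled and the 2 wild-type libraries, 1 point per library. The wild-type points of each gene lie within 1.28-fold of each other, whereas the knockout-labelled points of Tnn lie 103-fold and those of Tnxb 84.8-fold apart.

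Thbs1 was the most abundant thrombospondin gene in every library. It stood at 910.0 and 3742 FPKM in the knockout-labelled libraries, against 905 and 878 FPKM in wild type. Knockout 2 stood alone at 4.20 times the wild-type mean, and knockout 1 was within 1.02 times of it, so that the groups were separated only narrowly. Its log2 difference came to 1.05 (SE 0.735, adjusted p = 0.509, limma). Thbs1 (ENSMUSG00000040152) lies on chromosome 2, plus strand, at 118111876 to 118127133 (GRCm38). An antisense long noncoding RNA gene inside it, Gm29233, stood at 0.449 and 13.5 FPKM in the knockout-labelled libraries, against 0.705 and 0.601 FPKM in wild type. Whether the reads were counted by strand is not given in the sources used here, so reads of this antisense gene and of Thbs1 cannot be told apart.

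Thbs2, the close relative of Thbs1 that restrains matrix metalloproteinases and blood vessel growth, was the thrombospondin gene that was high in both knockout-labelled libraries. It stood at 276 and 163 FPKM in these 2 libraries, against 70.5 and 71.1 FPKM in wild type. Each exceeded each wild-type library by 2-fold or more on the scale of FPKM + 1, which 3.0% of all genes did in knockout 1 and 5.14% in knockout 2. The means were 219 ± 79.8 and 70.8 ± 0.453 FPKM (SD, n = 2 each), a ratio of 3.10, with a log2 difference of 1.57 (SE 0.288, adjusted p = 0.213, limma). Thbs2 (ENSMUSG00000023885) lies on chromosome 17, minus strand, at 14665500 to 14694235.

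Thbs3, a thrombospondin of the growing skeleton, was less abundant than Thbs1 and Thbs2 in every library. It stood at 23.7 and 37.9 FPKM in the knockout-labelled libraries, against 16.8 and 20.1 FPKM in wild type. Both knockout-labelled values were the higher ones, but the wild-type libraries themselves were 1.20-fold apart, and the log2 difference was 0.68 (SE 0.272, adjusted p = 0.32, limma). Thbs3 (ENSMUSG00000028047, plus strand of chromosome 3 from 89215180 to 89226837) overlaps Mtx1 on the other strand, which was level at 21.1 and 23.5 FPKM, against 20.2 and 23.7 FPKM.

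Comp, which encodes cartilage oligomeric matrix protein, a thrombospondin of cartilage and tendon, was close to absent from the knockout-labelled libraries. It stood at 0.130 and 0.0580 FPKM in these 2 libraries, against 2.98 and 2.67 FPKM in wild type. The values rest on 5 and 3 reads, against 73 and 115. From counting error alone, with exact intervals at 95%, Comp was 21.4-fold lower in knockout 1 than in the pooled wild-type libraries (9.0 to 66.6) and 48.0-fold lower in knockout 2 (16.2 to 235). The log2 difference was -1.81 (SE 0.211, adjusted p = 0.156, limma), a scale on which the pseudocount compresses so low a gene, and -4.87 with voom on the reads (adjusted p = 0.169). Comp passed the filter of a mean of 1 FPKM through the wild-type libraries alone. The gene (ENSMUSG00000031849) lies on chromosome 8, plus strand, at 70373558 to 70382066. Thbs4, the remaining thrombospondin gene, was at 0.0348 FPKM or below in every library and was not tested.

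The makeup of the thrombospondin family differed between the knockout-labelled libraries. Thbs2 made up 22.8% of the family's summed FPKM in knockout 1 and 4.13% in knockout 2, against 7.08% and 7.32% in wild type. The sum itself stood at 1209 and 3943 FPKM in the knockout-labelled libraries, against 995 and 972 FPKM in wild type. Thbs1 held the largest share in every library, at 75.2% in knockout 1. The excess of the sum over wild type was mostly Thbs2 in knockout 1 and mostly Thbs1 in knockout 2.

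**Figure D2:**
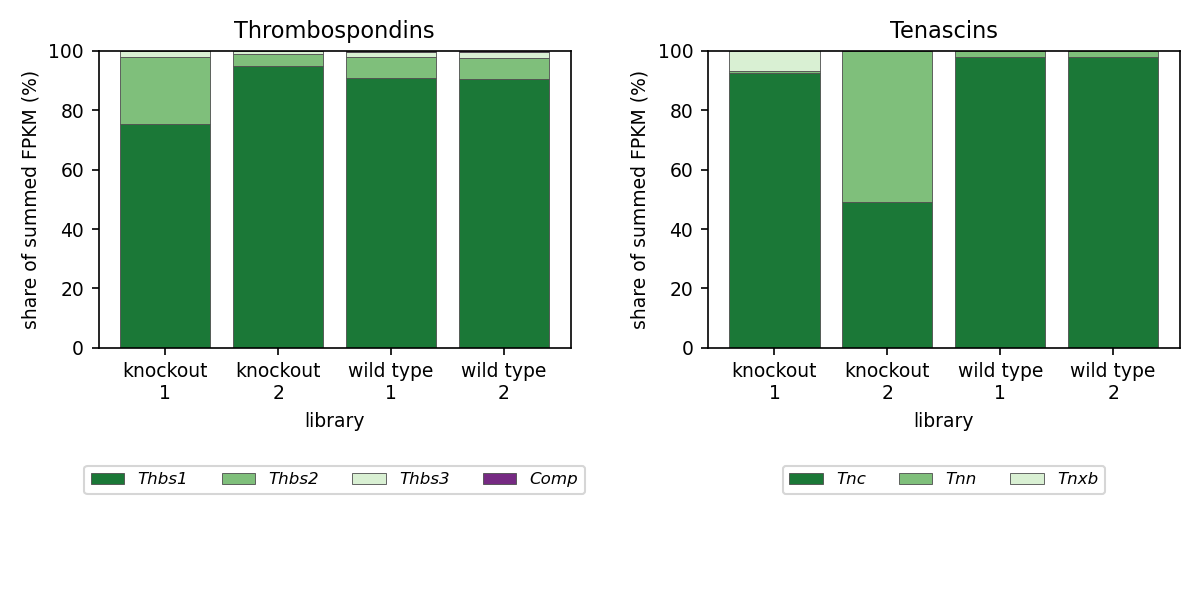
Share of each gene in the summed FPKM of its family in each library, for the thrombospondins on the left and the tenascins on the right. Tnn takes 50.8% of the tenascin sum in knockout 2, and Tnxb 6.92% in knockout 1, beside at most 1.98% and 0.150% in the wild-type libraries.

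Tnc, which encodes tenascin-C, a protein of injured and remodelling tissue, had the smallest gap of the 10 genes between the knockout-labelled libraries, at 1.34-fold. It stood at 68.8 and 51.4 FPKM in the knockout-labelled libraries, against 61.8 and 61.2 FPKM in wild type. The wild-type values lay between the knockout-labelled ones (log2 difference -0.05, SE 0.182, adjusted p = 0.91, limma). Tnc (ENSMUSG00000028364) lies on chromosome 4, minus strand, at 63959785 to 64047015.

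Tnn, which encodes tenascin-W, a protein of developing bone and periosteum, was high in knockout 2 only among the 4 libraries. It stood at 0.515 and 53.1 FPKM in the knockout-labelled libraries, against 1.17 and 1.24 FPKM in wild type. From counting error alone, knockout 2 was 43.7-fold above the pooled wild-type libraries (35.1 to 55.1), while knockout 1 was 2.36-fold below them (1.43 to 4.06). These opposite positions gave a log2 difference of 2.04 with an SE of 1.83 (adjusted p = 0.591, limma). With that level Tnn was as abundant in knockout 2 as Tnc, at 50.8% of the summed FPKM of Tnc, Tnn and Tnxb, and it passed the filter on low values mainly through that library. Tnn (ENSMUSG00000026725) lies on chromosome 1, minus strand, at 160085029 to 160153580.

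Tnxb, which encodes tenascin-X, a protein bound to collagen fibrils of skin and other loose connective tissue, was the converse. It stood at 5.16 and 0.0608 FPKM in the knockout-labelled libraries, against 0.0734 and 0.0938 FPKM in wild type. From counting error alone, knockout 1 was 59.7-fold above the pooled wild-type libraries (40.4 to 91.9), from 882 reads, while the ratio of knockout 2 to them was 0.703 (0.340 to 1.40). The log2 difference was 1.24 (SE 0.923, adjusted p = 0.53, limma), and Tnxb passed the filter through knockout 1 alone. The gene (ENSMUSG00000033327) lies on chromosome 17, plus strand, at 34670535 to 34719815. Its end overlaps the pseudogene Cyp21a2-ps on the other strand, which was listed at 0 in every library. Tnr, the remaining tenascin gene and one of the nervous system, was at 0.271 FPKM or below in every library.

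Postn, which encodes periostin, a collagen-binding protein of periosteum and fibroblasts, was higher in both knockout-labelled libraries. It stood at 630.0 and 2351 FPKM in these 2 libraries, against 320 and 338 FPKM in wild type. Knockout 1 was 1.92 times and knockout 2 7.15 times the wild-type mean, and the groups did not overlap. The means were 1491 ± 1217 and 329 ± 12.2 FPKM (SD, n = 2 each), with a log2 difference of 1.89 (SE 0.683, adjusted p = 0.293, limma). Postn (ENSMUSG00000027750) lies on chromosome 3, plus strand, at 54361109 to 54391037.

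Sparc, which encodes SPARC or osteonectin, a calcium- and collagen-binding protein abundant in bone, stood on opposite sides of wild type in the knockout-labelled libraries. It stood at 1409 and 4786 FPKM in these 2 libraries, against 2515 and 2546 FPKM in wild type. Knockout 1 was 1.80-fold lower and knockout 2 1.89-fold higher than the wild-type mean, which left a log2 difference of 0.04 (SE 0.644, adjusted p = 0.979, limma). Sparc was the sixth most abundant gene of knockout 2 and ranked 28 in knockout 1, against 16 in both wild-type libraries. The gene (ENSMUSG00000018593) lies on chromosome 11, minus strand, at 55394500 to 55423183.

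Fn1, which encodes fibronectin, the fibril-forming protein to which cells, tenascins and collagens attach, was lower in both knockout-labelled libraries. It stood at 2157 and 1301 FPKM in these 2 libraries, against 2621 and 2571 FPKM in wild type. Knockout 1 was 1.20-fold and knockout 2 1.995-fold below the wild-type mean, and the groups did not overlap (log2 difference -0.63, SE 0.30, adjusted p = 0.364, limma). Fn1 (ENSMUSG00000026193) lies on chromosome 1, minus strand, at 71585520 to 71653200. A gene total cannot separate its splice forms.

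In wild type the order of levels was Fn1, Sparc, Thbs1, Postn, Thbs2, Tnc, Thbs3, Comp, Tnn and Tnxb, and no neighbours in that order overlapped between the libraries, although Fn1 and Sparc differed only by 2596 ± 35.6 against 2531 ± 21.6 FPKM (SD, n = 2 each). Levels of different genes are comparable only as far as the gene lengths the authors used. In knockout 1 Fn1 still led, ahead of Sparc and Thbs1. In knockout 2 the order was Sparc, Thbs1, Postn and then Fn1. The 10 genes summed to 5479.9 and 12485 FPKM in the knockout-labelled libraries, against 6515 and 6488 FPKM in wild type.

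Some of these genes also differed widely between the knockout-labelled libraries. Between them, 5 of the 10 (Thbs1, Tnn, Tnxb, Postn and Sparc) lay at least 2-fold apart on the test's scale, beside the 12.5% of all genes given above, and between the wild-type libraries 0 of 10 did. Knockout 1 lay at least 2-fold from both wild-type libraries for 3 of 10 (Thbs2 and Tnxb above, Comp below), beside 5.37% of all genes, of which 2.37% lay below. Knockout 2 did so for 5 of 10 (Thbs1, Thbs2, Tnn and Postn above, Comp below), beside 11%, of which 5.87% lay below. Thbs2 and Comp were the 2 members past 2-fold in both. Both comparisons use the same wild-type libraries. Tnxb passed the filter on low values through knockout 1 alone, Tnn mainly through knockout 2 and Comp through wild type alone. Their calls in these counts are therefore not independent of the filter.

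**Figure D3:**
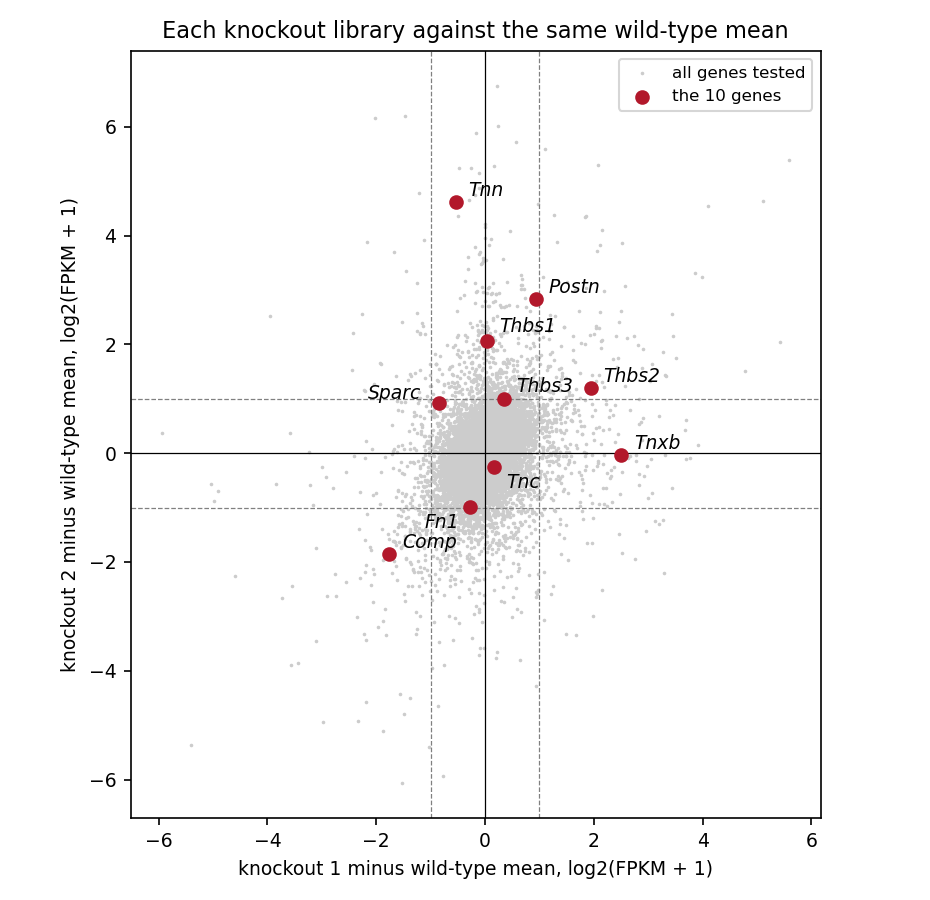
Difference of each knockout-labelled library from the wild-type mean on the log2(FPKM + 1) scale, knockout 1 across and knockout 2 up, for all 12344 genes tested (grey) and the 10 genes (red). Dashed lines mark a 2-fold difference. Thbs2 (1.95 and 1.19) and Comp (-1.76 and -1.85) lie outside them on both axes, Tnn (-0.54 and 4.62) and Tnxb (2.51 and -0.03) on 1 axis.

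Osteoblast markers were high in knockout 2, the library in which Thbs1, Thbs3, Tnn, Postn and Sparc were highest. Summed over the 10 osteoblast markers, the level was 105 and 1439 FPKM in the knockout-labelled libraries, against 115 and 118 FPKM in wild type. Of the 9 tested, 8 exceeded each wild-type library by 2-fold or more in knockout 2, beside 5.14% of all genes. In knockout 1, 0 did so and 2 stood 2-fold or more below, beside 3.0% and 2.37% of all genes, and 0 of the 9 passed between the groups in limma, nor did any at an unadjusted p under 0.05 or with voom. Among the 8, Bglap, Bglap2, Dmp1 and Ifitm5 passed the filter on low values through knockout 2 alone, at 0.717 FPKM or below elsewhere. Their excess in knockout 2 was thus fixed by the filter. Chondrocyte markers summed to 86.3 and 485 FPKM, against 73.9 and 74.2 FPKM, mostly through Col11a1 at 68.9 and 462 FPKM, against 59.6 and 60.3 FPKM. In knockout 2, 3 of the 5 tested (Col11a1, Col11a2 and Hapln1) exceeded each wild-type library by 2-fold or more, beside 5.14% of all genes. Hapln1 passed the filter through knockout 2 alone. Sox9 lay 2-fold or more below there, at 7.37 and 1.11 FPKM, against 4.07 and 4.38 FPKM. Col2a1 was near level at 7.76 and 5.88 FPKM, against 6.62 and 6.08 FPKM. Acan, which encodes the main cartilage proteoglycan, was at or below 0.0199 FPKM in every library. Adipocyte markers summed to 224 and 65.3 FPKM, against 28.7 and 25.4 FPKM, with Lpl alone at 190.2 and 17.4 FPKM, against 3.33 and 3.56 FPKM. Cebpa was also highest in knockout 1, at 8.28 and 3.72 FPKM, against 2.36 and 1.83 FPKM. Fabp4 was highest in knockout 2 instead, at 4.58 and 21.2 FPKM, against 3.94 and 4.12 FPKM. Pparg, the master regulator of fat cell formation, stood at 20.96 and 22.8 FPKM, against 18.9 and 15.9 FPKM, and Adipoq was at or below 0.0689 FPKM throughout. The part of these markers in the levels of Thbs1, Thbs3, Tnn, Postn, Sparc and Tnxb was not tested. In bulk RNA, fewer cells of a type and less RNA per cell cannot be told apart.

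The remaining lists were checked in the same way. The 12 stromal markers summed to 7290.0 and 25573 FPKM, against 13534 and 12983 FPKM, most of it from Col1a1 and Col1a2, while the growth factor receptor genes on the list lay on opposite sides of wild type. Pdgfrb stood at 100.4 and 77.4 FPKM, against 148 and 143 FPKM, and Pdgfra at 38.8 and 15.998 FPKM, against 8.73 and 8.79 FPKM. Lepr, a marker of marrow stroma in the living animal, was at 0.316 and 2.45 FPKM, against 0.0902 and 0.333 FPKM. The white blood cell list summed to 62.8 and 97.1 FPKM, against 92.5 and 89.5 FPKM. Most of that sum was Lyz2, at 36.9 and 66.7 FPKM, against 65.9 and 63.0 FPKM. Of the 6 tested, 3 lay above both wild-type libraries (Ptprc, Adgre1 and Csf1r) and 1 below both (Cd68), beside 29.4% and 24.8% of all genes. Ptprc, which marks all white blood cells, stood at 1.32 and 1.89 FPKM, against 0.988 and 1.12 FPKM. Csf1r stood at 4.45 and 8.39 FPKM, against 3.65 and 4.19 FPKM, and Cd68 at 8.37 and 9.32 FPKM, against 12.7 and 10.8 FPKM. For megakaryocytes and platelets, which also hold thrombospondin 1 and SPARC, the sum was 15.2 and 12.3 FPKM, against 13.9 and 11.03 FPKM. Endothelial markers summed to no more than 0.864 FPKM in any library. Tendon cell markers summed to 50.7 and 73.4 FPKM, against 68.7 and 64.3 FPKM.

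**Figure D4:**
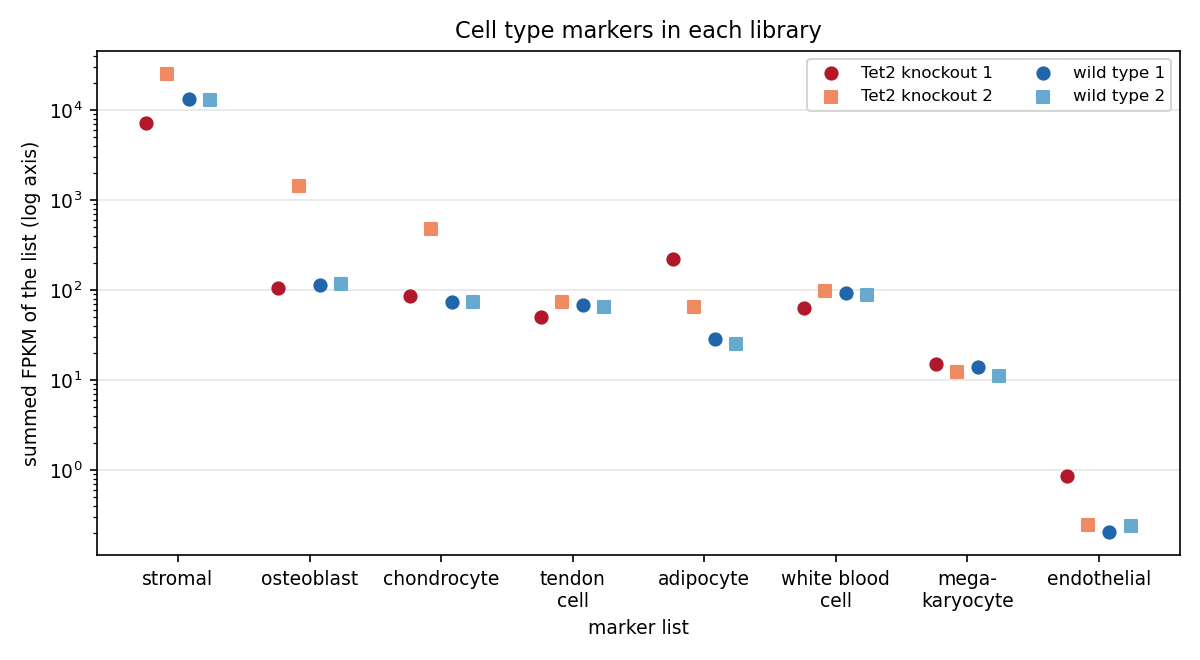
Summed FPKM (log axis) of 8 lists of cell type markers in each library, with the 2 Tet2 knockout-labelled libraries left of the 2 wild-type ones. The osteoblast sum of knockout 2 (1439) stands above the other 3 libraries (105 to 118).

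Other matricellular genes lay more often below wild type than above it. Of 28 listed and measured, 20 were tested, and 0 passed in limma (8 at an unadjusted p under 0.05, 4 in each direction, beside 8.84% higher and 8.29% lower of all genes, and 0 with voom). Both knockout-labelled libraries lay above both wild-type libraries for 4 and below both for 9, beside 29.4% and 24.8% of all genes, and the median log2 difference was -0.44. Spon1, counted among the lower, passed the filter on low values through wild type alone, at 0.648 and 0.450 FPKM, against 1.60 and 1.83 FPKM. The smallest p was that of Ecm1, which encodes a secreted glycoprotein of skin and growth plate, at 507 and 446 FPKM, against 1236 and 1183 FPKM (log2 -1.34, SE 0.146, adjusted p = 0.15, limma). Smoc1, a SPARC-related calcium-binding protein gene that limits bone morphogenetic protein signals, stood at 2.53 and 0.218 FPKM, against 11.8 and 11.04 FPKM. Edil3, which encodes an integrin-binding protein, stood at 11.9 and 24.6 FPKM, against 46.7 and 49.3 FPKM. Spon2, a spondin with a thrombospondin type 1 repeat, was on the higher side at 9.83 and 12.6 FPKM, against 4.70 and 4.32 FPKM.

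Further genes of that list were chosen after their values were seen. Spp1, which encodes osteopontin, stood at 3871 and 2528 FPKM, against 1775 and 1918 FPKM. Sparcl1, the closest relative of Sparc, stood at 8.40 and 4.25 FPKM, against 0.531 and 1.93 FPKM. Several were lowest in knockout 2: Smoc2 at 55.6 and 7.10 FPKM, against 60.0 and 60.0 FPKM, the fibulin gene Fbln2 at 1107 and 158 FPKM, against 918 and 839 FPKM, and Ccn5 (Wisp2), a connective tissue growth factor relative, at 168 and 22.4 FPKM, against 259 and 246 FPKM. In knockout 2, 6 of the 20 lay at least 2-fold below both wild-type libraries and 1 above, beside 5.87% and 5.14% of all genes, the opposite balance to the 10 genes, where 1 lay below and 4 above; that contrast was not tested.

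**Figure D5:**
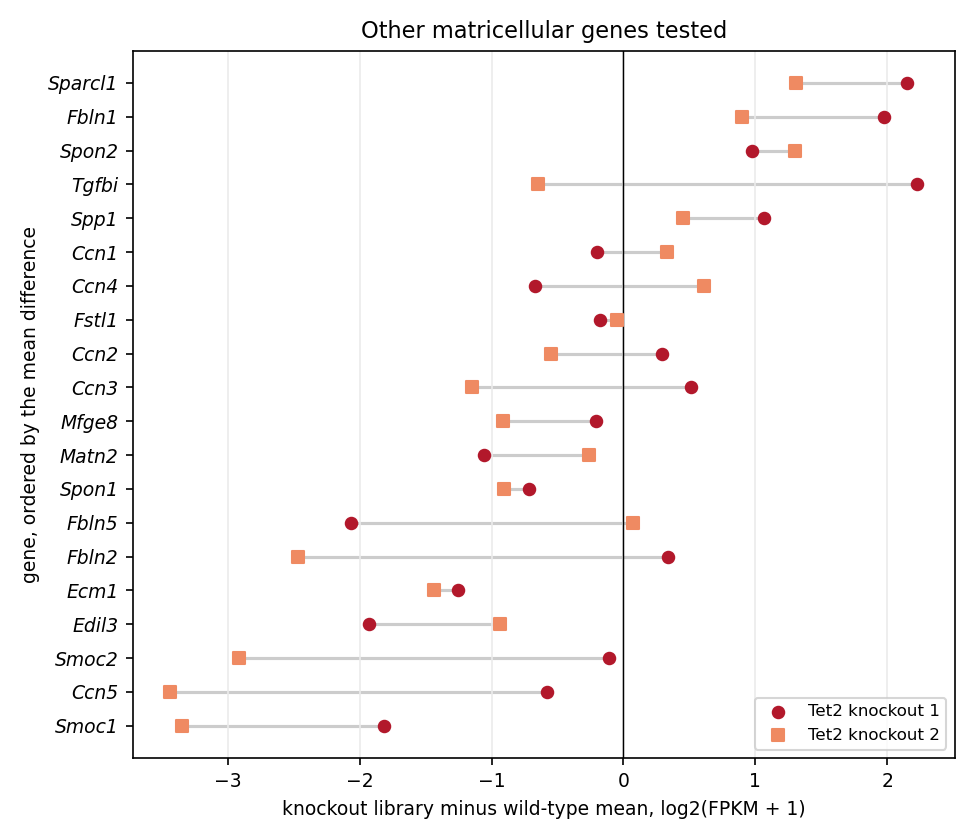
Difference of each Tet2 knockout-labelled library from the wild-type mean, on the log2(FPKM + 1) scale, for the 20 other matricellular genes tested, with a circle for knockout 1 and a square for knockout 2. Ecm1 (-1.25 and -1.44) and Smoc1 (-1.81 and -3.35) lie left of 0 in both, and Fbln2 (0.34 and -2.47) is split.

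Receptors of these proteins lay close to wild type in the median. Of 22 listed, 18 were tested and 0 passed in limma (3 at an unadjusted p under 0.05, all lower, and 0 with voom), beside 17.1% of all genes in either direction and 8.29% lower. In position, 2 lay above both and 7 below both wild-type libraries, beside 29.4% and 24.8% of all genes, and the median log2 difference was -0.02. By library that median was -0.14 in knockout 1 and -0.18 in knockout 2. The smallest p-values were those of Cacna2d1, which encodes the calcium channel subunit that binds thrombospondins, at 21.6 and 21.9 FPKM, against 29.8 and 33.5 FPKM, and the laminin receptor gene Itga7, at 2.15 and 3.70 FPKM, against 5.65 and 5.56 FPKM. Sdc1, a syndecan, stood at 186 and 165 FPKM, against 229 and 228 FPKM, and the vitronectin receptor subunit gene Itgb5 at 263 and 401 FPKM, against 523 and 501 FPKM. The receptors below were picked for their role. Cd47 stood at 31.5 and 30.3 FPKM, against 34.2 and 35.9 FPKM, whereas Cd36 was at or below 0.202 FPKM in every library. Lrp1 stood at 1144 and 668 FPKM, against 1555 and 1464 FPKM. Itga5, which pairs with Itgb1 as the main fibronectin receptor, stood at 106 and 49.2 FPKM, against 78.8 and 73.0 FPKM, and Itgb1 at 897 and 1225 FPKM, against 707 and 741 FPKM. Itga8 and Itga9, which encode receptor subunits for tenascins, were both highest in knockout 2. Itga8 stood at 0.746 and 7.75 FPKM in the knockout-labelled libraries, against 1.45 and 1.52 FPKM in wild type, and Itga9 at 9.20 and 18.0 FPKM, against 7.90 and 8.17 FPKM.

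Among the 18 genes of TGF-beta ligands, their activation and early targets, all tested, 0 passed in limma (1 at an unadjusted p under 0.05 on the higher and 3 on the lower side, beside 8.84% and 8.29% of all genes, and 0 with voom), and the median log2 difference was -0.20. By library that median was 0.08 in knockout 1 and -0.39 in knockout 2. Tgfbr1, the signalling receptor, stood at 31.8 and 33.2 FPKM, against 14.5 and 13.8 FPKM (log2 1.15, SE 0.12, adjusted p = 0.15, limma). The feedback inhibitor gene Smad7 stood at 34.8 and 31.2 FPKM, against 53.9 and 55.9 FPKM, and the ligand gene Tgfb2 at 30.5 and 36.6 FPKM, against 47.2 and 50.3 FPKM. Ltbp4, which encodes a latent TGF-beta binding protein, stood at 1.01 and 0.926 FPKM, against 2.12 and 2.07 FPKM. Its knockout-labelled mean of 0.971 FPKM lay under the filter of 1 FPKM, which it passed through wild type.

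Of the 12 adaptor genes that tie fibronectin-bound integrins to actin, all tested, 0 passed in limma (2 at an unadjusted p under 0.05, both lower, and 0 with voom), beside 17.1% of all genes in either direction and 8.29% lower. In position, 2 of the 12 lay above and 4 below both wild-type libraries, beside 29.4% and 24.8% of all genes, and the median log2 difference was -0.37. By library that median was -0.01 in knockout 1 and -0.56 in knockout 2. Vcl, which encodes vinculin, stood at 93.4 and 105 FPKM, against 143 and 144 FPKM. The tensin gene Tns3 stood at 118 and 86.8 FPKM, against 160.0 and 149 FPKM, and the parvin gene Parva at 159 and 84.8 FPKM, against 194 and 189 FPKM. Tln1, which encodes talin, was on the higher side at 541 and 444 FPKM, against 409.8 and 374 FPKM.

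The genes nearest to each member over the 4 libraries were found by the root mean square difference between profiles of log2(FPKM + 1), each centred on its own mean, leaving out genes whose mean was under 5 FPKM. Tnn lay nearest to Epha3 and Pth1r (differences of 0.12 and 0.176), Pth1r being the parathyroid hormone receptor gene of osteoblasts, at 0.346 and 40.7 FPKM, against 0.883 and 0.463 FPKM. Postn lay nearest to Cth and Fndc4 (0.0401 and 0.0989), Thbs1 to Fabp4 and Aldh1l2 (0.061 and 0.0742) and Sparc to Nuak1 and Tsc22d3 (0.0116 and 0.0509). Tnxb lay nearest to Mgst1 and Atp1b1 (0.0925 and 0.144), with Mgst1 at 101 and 14.5 FPKM, against 14.3 and 16.6 FPKM. Comp lay nearest to the cell cycle inhibitor gene Cdkn2b and to Adssl1 (0.0949 and 0.105), and Thbs2 to Pde8a and Kif1a (0.0609 and 0.11). The remaining pairs were Psd3 and Dbt for Thbs3 (0.0175 and 0.0245), Mcm3ap and Hnrnpul1 for Tnc (0.0132 and 0.0145), and Fam50a and Cenpv for Fn1 (0.018 and 0.0211). With 4 libraries, of which the wild-type ones are nearly alike, such profiles have few distinct shapes, and nearness says nothing of shared control.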

How the data were processed

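The authors deposited 1 table of FPKM for 41029 mouse genes in 4 libraries, and every column was mapped to a library by its title. Per the submitters' processing notes, the tools were HTSeq 0.6.1, TopHat2 2.0.12 and Bowtie2 2.2.3, with build mm10. How gene lengths were set and whether strand was used is not given in the sources used here. Because FPKM are relative to each library's total, a gain in abundant genes lowers the rest.

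Symbols, coordinates and overlaps came from GENCODE release M21 (GRCm38), which holds 40535 of the identifiers; CCN genes were matched through RefSeq synonyms. The FPKM are quotients of whole numbers, from which totals and reads were worked out for all 25309 genes above 0. These reads are lower bounds where a gene's reads share a common factor, which makes the counting intervals wide rather than narrow; intervals cover counting error only.

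limma 3.58.1 in R 4.3.3 was run on log2(FPKM + 1), leaving out genes whose mean FPKM was under 1, with a mean-variance trend, no replicate block and two-sided p-values. An exact permutation test of 1 gene at 2 against 2 cannot go below p = 0.33. The fit was tested on simulated data. All 10 members, and for each list the up to 4 genes of smallest p, were to be named, with the 2 nearest profiles per member; where a gene outside this rule is named, the text says whether it was picked for its values or its role. The marker lists serve as a check, so their named genes were picked as the most telling ones after the values were seen. Members and lists were chosen with earlier results of these data known. The alternatives are given in the closing section.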

Additional observations from a re-analysis of the deposited data

How the results depend on the processing

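Of 138 recomputed log2 differences of the 10 genes under 14 alternatives, 119 kept their direction and stayed on the same side of an adjusted p of 0.05, 15 passed it in the same direction, and 4 turned round. The ones that passed or turned all came from leaving out a knockout-labelled library. Without knockout 1 and without knockout 2, the log2 difference was -0.255 and 0.16 for Tnc, 4.62 and -0.54 for Tnn, -0.0306 and 2.51 for Tnxb, and 0.919 and -0.84 for Sparc. Without knockout 1, 9 of the 10 passed and without knockout 2, 8 did; the lone knockout-labelled library is then assumed to vary like the wild type, although the root mean square SD of replicates was 0.575 on the log2 scale in knockout-labelled and 0.136 in wild-type libraries. Over all genes, the 2 calls became 1 with a pseudocount of 0.1 or 0.01 and 0 with voom (2045 at an unadjusted p under 0.05), and the range over leaving out each library was 0 to 7415: 7415 without knockout 1, 5734 without knockout 2, and 0 without wild type 1 or wild type 2 (274 and 312 at an unadjusted p under 0.05, limma). With the wild-type libraries averaged as 1 sample, an alternative added after the data were seen like the pseudocount of 0.01, 0 genes passed, with 275 at an unadjusted p under 0.05 (limma). With the replicate block 0 genes passed in limma, with 1328 at an unadjusted p under 0.05; the numbers are shared by label only, the deviations of same-numbered libraries correlated at 0.0061 across genes, and no member's call changed. With no filter, a stricter filter of 5 FPKM, median scaling, quantile normalization or no trend the count stayed at 2. The stricter filter removes Comp and Tnxb, which have no value there. The cause of each shift was not tested beyond the construction named. Depth limits Comp most, with 5 and 3 reads in the knockout-labelled libraries against 73 and 115 in wild type.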

Other observations

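Genes of other connective tissue fates, picked after their values were seen, also split the knockout-labelled libraries. Tnmd, which encodes tenomodulin, a membrane protein of tendon cells, stood at 23.5 and 0.173 FPKM in these 2 libraries, against 1.76 and 1.83 FPKM in wild type. Lpl, the lipoprotein lipase gene, stood at 190.2 and 17.4 FPKM, against 3.33 and 3.56 FPKM. Thy1, a surface marker of fibroblasts, stood at 131 and 8.27 FPKM, against 14.9 and 15.98 FPKM, and the fibrillar collagen gene Col3a1 at 642 and 114 FPKM, against 308 and 297 FPKM. These 4 genes were all highest in knockout 1, the library in which Tnxb was highest. Their lists were mixed, since other genes on them were lowest in knockout 1 or highest in knockout 2. Fmod of the tendon list stood at 11.3 and 41.4 FPKM, against 46.1 and 40.8 FPKM. Fabp4 of the adipocyte list stood at 4.58 and 21.2 FPKM, against 3.94 and 4.12 FPKM. For Col1a1 of the stromal list the values were 2628 and 13294 FPKM, against 6257 and 5962 FPKM. Knockout 2 was the library in which Tnn, Thbs1, Thbs3, Postn and Sparc were highest. There the surface enzyme gene Nt5e stood at 61.1 FPKM, beside 9.46 FPKM in knockout 1 and against 3.28 and 3.13 FPKM in wild type. With 2 libraries, values that differ between the knockout-labelled libraries have no replicate.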
